A study of Mus musculus with 15 samples.

Results

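The genes described here encode the nuclear subunits of the 5 oxidative phosphorylation complexes, measured in mouse knee joint synovium across the course of collagen-induced arthritis (CIA). They were taken by symbol from the array annotation: genes of the Ndufa, Ndufb, Ndufc, Ndufs and Ndufv series (complex I, without the Ndufaf assembly factors), Sdha to Sdhd (complex II), Uqcr genes and Cyc1 (complex III), Cox4 to Cox8 genes (complex IV) and Atp5 genes (complex V). The rule found 83 of the 18194 named genes on the arrays: 36 of complex I, 4 of complex II, 9 of complex III, 17 of complex IV and 17 of complex V. It used names only, not measured values. Each gene was represented by 1 probe set, the one with the highest mean over the 15 arrays, and 82 of the 83 passed the filter on low signals, against 14315 of all genes.

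The 15 arrays form 5 groups of 3: synovium of healthy mice, called naive, and of CIA mice graded as having no, mild, moderate or severe swelling of the joint. CIA is a mouse model of inflammatory arthritis in which the immune response to injected type II collagen attacks the joints. The labels' treatment text, an immunization with type II collagen in Freund's complete adjuvant and a later intraperitoneal boost, is printed for the naive samples too and was read as written for the whole series. If it did apply to the naive mice, each comparison with naive would have another meaning. Strain, sex and age are not given in the sources used here, nor is the number of animals behind an array. The p-values therefore compare groups with the spread among the samples alone, and that spread may be technical.

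Oxidative phosphorylation takes place in the inner mitochondrial membrane. Complex I (NADH dehydrogenase) and complex II (succinate dehydrogenase) pass electrons to ubiquinone, complex III passes them on to cytochrome c, and complex IV (cytochrome c oxidase) to oxygen. Complexes I, III and IV pump protons, and complex V (ATP synthase) makes ATP from the return flow. A few subunits are still encoded by mitochondrial DNA and are not among the genes described here. Several subunits of complex IV come in 2 forms encoded by different genes, one found chiefly in heart and skeletal muscle and one in most tissues.

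Messenger RNA of most subunits was lower in swollen joints than in naive joints, already with mild swelling, and the median change was lowest with moderate swelling. Of the 82 subunit genes tested, 73 fell and 6 rose in severe swelling against naive, at an adjusted p under 0.05 in a linear model fitted to all genes (limma, Benjamini-Hochberg). Over all genes tested, 22.9% fell and 32.3% rose. The median log2 fold change was -1.08 over the subunits and 0.11 over all genes. In moderate swelling 73 fell and 6 rose (all genes 23.8% and 30.9%), with a median of -1.17 against 0.06 over all genes. In mild swelling 70 fell and 4 rose (all genes 17.1% and 23.1%), with a median of -0.74 against 0.05. Joints without swelling differed from naive in 0 of the 82 genes, and the background was 1.76% lower and 1.52% higher. Without adjustment 5 of the 82 had a p under 0.05 in the same model, against 2703 of the 14315 genes tested. A moderated F test over the 5 groups called 78 of the 82, against 60.7% of all genes.

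How far the subunits fell depended on the scale on which the arrays were set against each other. The deposited signals had a common trimmed mean on every array. When the arrays were set to equal hybridization controls, which are transcripts added to each labelled sample, the median of all genes moved up by 0.42 in severe, 0.42 in moderate and 0.53 in mild swelling. On that scale 31, 37 and 0 of the 82 subunit genes fell in severe, moderate and mild swelling against naive. Of all genes 5.52%, 5.34% and 0.929% fell there, and the subunit medians were -0.57, -0.68 and -0.09. Of the 48 genes followed under each alternative, Ndufv2, Ndufs8, Ndufb8, Uqcrh, Uqcrq, Cox4i1, Cox5a, Cox5b, Cox7a2, Atp5a1, Atp5b, Atp5c1, Atp5d and Atp5g3 fell in severe swelling as deposited and did not pass on that scale, with values between -0.73 and -0.01. Of all calls in severe swelling, 41.5% were lower as deposited, 13.0% on the hybridization controls and 54.4% with array medians aligned. Relative to the median of all genes, the subunits lay at -1.19 in severe swelling as deposited and between -1.23 and -0.90 on the other 3 scales. The same difference was -1.23 (-1.25 to -0.93) in moderate and -0.78 (-0.80 to -0.53) in mild swelling. The values below are those of the deposited scale, and the direction of a gene is relative to the other genes of its array.

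**Figure D1:**
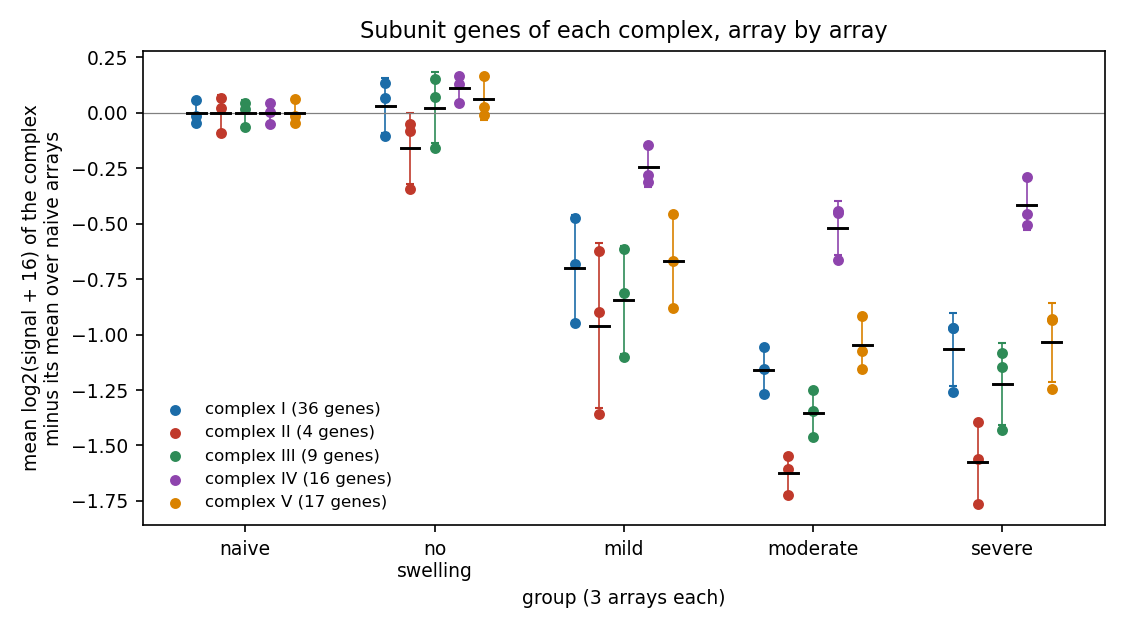
Mean log2(signal + 16) of the subunit genes of each complex on each of the 15 arrays, minus the mean of the 3 naive arrays. Each point is 1 array, black bars are group means and whiskers are the SD over 3 arrays. In each complex the swollen groups lie below naive, least in complex IV (where mild swelling is above naive on hybridization controls), and the mild arrays are the most spread in complexes I, II, III and V.

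The size of the fall varied between the complexes, as a description with no test. In severe swelling against naive the median log2 fold change was -1.13 for complex I, -1.54 for complex II, -1.34 for complex III, -0.63 for complex IV and -0.98 for complex V. All 4 genes of complex II, all 9 of complex III and all 17 of complex V fell, as did 33 of 36 in complex I and 10 of 16 in complex IV. Of the 6 genes called higher 5 are in complex IV, but 2 of these, Cox6b2 and Cox7c, lay below the filter's percentile on all 3 naive arrays and entered the test through other groups, so their calls are no support for a concentration there. In mild swelling the order from the lowest median was complex II (-0.97), III (-0.83), I (-0.77), V (-0.71) and IV (-0.53, and 0.11 on hybridization controls). On hybridization controls the severe medians were still below 0 in each complex (-0.62, -1.03, -0.83, -0.12 and -0.46 for complexes I to V).

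The 9 swollen arrays were set apart from the 6 others in most of the genes. In 70 of 82 genes (85.4%) each swollen array was below each naive and unswollen array, against 12.2% of all genes. This held for 32 of 36 genes in complex I, 4 of 4 in II, 9 of 9 in III, 9 of 16 in IV and 16 of 17 in V. In 2 genes, Ndufa4l2 and Cox8c, each swollen array was above each other array (17.1% of all genes). Within the mild group the arrays were unequal. Over complex I the mean log2 signal was 10.93, 11.14 and 10.67 on mild replicates 1, 2 and 3, between 11.51 and 11.75 on the unswollen CIA arrays and between 10.35 and 10.56 on the moderate arrays.

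Complex I is an L-shaped assembly with a matrix arm, made of an N module that oxidizes NADH and a Q module that reduces ubiquinone, and a membrane arm that pumps protons. All 7 genes assigned here to the N module fell in severe swelling against naive, with a median of -1.14. All 5 measured genes assigned to the Q module fell, with a median of -1.41. Of 19 genes assigned to the membrane arm 17 fell, with a median of -1.08. Ndufa4, Ndufa4l2, Ndufa6, Ndufa7 and Ndufab1 were assigned to none of these parts and are not in these counts.

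Ndufs1, the largest iron-sulphur subunit of the N module, had signals of 3268, 3227 and 3642 in naive joints, 2504, 3256 and 3634 without swelling, 1431, 1873 and 991 with mild, 733, 806 and 720.4 with moderate and 696, 814 and 979.8 with severe swelling. The naive and unswollen arrays were above each swollen array, and the moderate and severe arrays overlapped. Its log2 fold change in severe swelling against naive was -2.02 ± 0.20 (limma, SE), a fold of 0.247, the deepest fall in complex I (adjusted p = 7.58e-07). Ndufv1, which carries FMN and the NADH binding site, had signals of 4734, 4513 and 4808 in naive joints, 3024, 4439 and 4427 without swelling, 2553, 3161 and 1899.5 with mild, 1616, 1522 and 1399 with moderate and 1203, 1625 and 1477 with severe swelling. Mild replicate 2 lay above no-swelling replicate 1, and the moderate and severe arrays were below all others. It changed by -1.71 ± 0.18 in severe swelling (adjusted p = 1.71e-06). Ndufv2, another iron-sulphur protein of the NADH-oxidizing end, changed by -1.14 ± 0.13, with an adjusted p of 3.95e-06.

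The Q module contains the last iron-sulphur clusters before ubiquinone. Ndufs7, which holds one of them, had signals of 5075, 4925 and 5439 in naive joints, 4073, 5394 and 5240.1 without swelling, 2548, 3552 and 1889 with mild, 1431, 1447 and 1628 with moderate and 1496, 1786 and 1681 with severe swelling. Groups with and without swelling did not overlap, and the change in severe swelling was -1.63 ± 0.18 (adjusted p = 2.29e-06). Ndufs8, with clusters that feed that one, had signals of 3876, 3941 and 4336 in naive joints, 4166, 5937 and 5511 without swelling, 2660.4, 2512 and 2168 with mild, 1275, 1365 and 1589 with moderate and 1814, 1777 and 2346 with severe swelling. It was lowest with moderate swelling, and its change was -1.04 ± 0.15 in severe and -1.52 ± 0.15 in moderate swelling (adjusted p = 2.95e-05 and 9.48e-07). Ndufs3 changed by -1.29 ± 0.15 and the accessory subunit Ndufa9 by -1.52 ± 0.15 in severe swelling, with adjusted p of 3.58e-06 and 9.58e-07.

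In the membrane arm, Ndufa10, an accessory subunit, had signals of 3933, 3412 and 4006 in naive joints, 2697, 3546 and 3716 without swelling, 1634, 1943 and 1311 with mild, 913, 1110.2 and 1015 with moderate and 973, 1101 and 1229.8 with severe swelling. Its change was -1.77 ± 0.16 in severe swelling (adjusted p = 4.43e-07), and the swollen and other arrays did not overlap. Ndufb8 changed by -1.08 ± 0.13 (adjusted p = 5.05e-06). Ndufb7 changed by the smallest amount among the complex I genes that fell, -0.42 ± 0.12 (adjusted p = 0.00731), and at -0.18 did not pass after quantile normalization and had a value of 0.092 on hybridization controls. Ndufb1 and Ndufb4 did not pass. Ndufb1 had signals of 114, 109.7 and 145 in severe swelling, against 122, 158 and 112 in naive joints, which overlap, and a value of -0.07 ± 0.18 with an adjusted p of 0.748. Ndufb4 was dim, with a mean signal of 26.6 over the 15 arrays and a value of -0.16 ± 0.21.

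Ndufa4l2 went the other way. It is a paralogue of Ndufa4, placed in complex I by its symbol, although the Ndufa4 protein is now counted with complex IV, and it is known as a target of hypoxia-inducible factor in other tissues. Its signals were 128, 95.3 and 134 in naive joints, 87.5, 112 and 67.1 without swelling, 248, 147 and 408 with mild, 228, 216 and 357 with moderate and 424, 334 and 446 with severe swelling. The lowest swollen array, a mild one, was still above each of the 6 other arrays. The change was 1.63 ± 0.28 in severe swelling, a fold of 3.09 (adjusted p = 0.000141), and 0.97 ± 0.28 in mild swelling (adjusted p = 0.0115). Ndufa4 changed by -1.01 ± 0.13 in severe swelling.

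Complex II is the only one of the 5 that also works in the citric acid cycle, and its 4 subunits are all nuclear. Sdha, the flavoprotein that oxidizes succinate, had signals of 5639.6, 5089 and 5433 in naive joints, 4386, 5116 and 5624 without swelling, 2893, 3775 and 2356 with mild, 1738, 1822 and 1732 with moderate and 1701, 1946 and 2014 with severe swelling. Sdhc, one of a pair of membrane anchors, had signals of 3756, 3619 and 3834 in naive joints, 2506, 2834 and 2926 without swelling, 1923, 2283 and 1364 with mild, 1299, 1209 and 1018 with moderate and 949, 1188 and 1230.2 with severe swelling. In both genes the swollen arrays were below the 6 others, and the severe and moderate arrays overlapped. In severe swelling against naive Sdha changed by -1.51 ± 0.15, Sdhb, the iron-sulphur subunit, by -1.57 ± 0.19, Sdhc by -1.73 ± 0.16 and the second anchor Sdhd by -1.49 ± 0.18, with adjusted p between 6.61e-07 and 4.47e-06.

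Complex III receives electrons from ubiquinol. Uqcrfs1, the Rieske iron-sulphur protein, had signals of 5609, 5143 and 5573 in naive joints, 4832, 5355 and 6143 without swelling, 2878, 3208 and 1963 with mild, 1597, 1474 and 1812 with moderate and 1489.6, 1850.4 and 1939 with severe swelling. Cyc1, cytochrome c1, had signals of 5844, 5918 and 5878 in naive joints, 5885, 6077 and 7214 without swelling, 3759, 4401 and 2564 with mild, 1927, 1963 and 2410.3 with moderate and 1880.1, 2501 and 2701 with severe swelling. Both were below the naive and unswollen range on each swollen array. Uqcrfs1 changed by -1.63 ± 0.17 and Cyc1 by -1.33 ± 0.18 in severe swelling, and the core proteins Uqcrc1 and Uqcrc2 by -1.34 ± 0.17 and -1.41 ± 0.15. The small subunits Uqcr10, Uqcr11 and Uqcrh changed by -1.42 ± 0.18, -1.43 ± 0.16 and -1.24 ± 0.13. Uqcrq changed by -0.83 ± 0.13, but the mean over its 4 probe sets gave 0.083, and the other 3 had mean signals between 25.8 and 46.9. Uqcrb changed least, by -0.36 ± 0.13 (adjusted p = 0.0319), with 0.15 on hybridization controls. Its signals were 7977, 7359.9 and 9355 in severe swelling, against 11238, 9684 and 10703 in naive joints. The 2 groups did not overlap, yet the call was lost without naive replicate 1 (-0.31), naive replicate 3 (-0.35), severe replicate 1 (-0.34) or severe replicate 2 (-0.28).

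**Figure D2:**
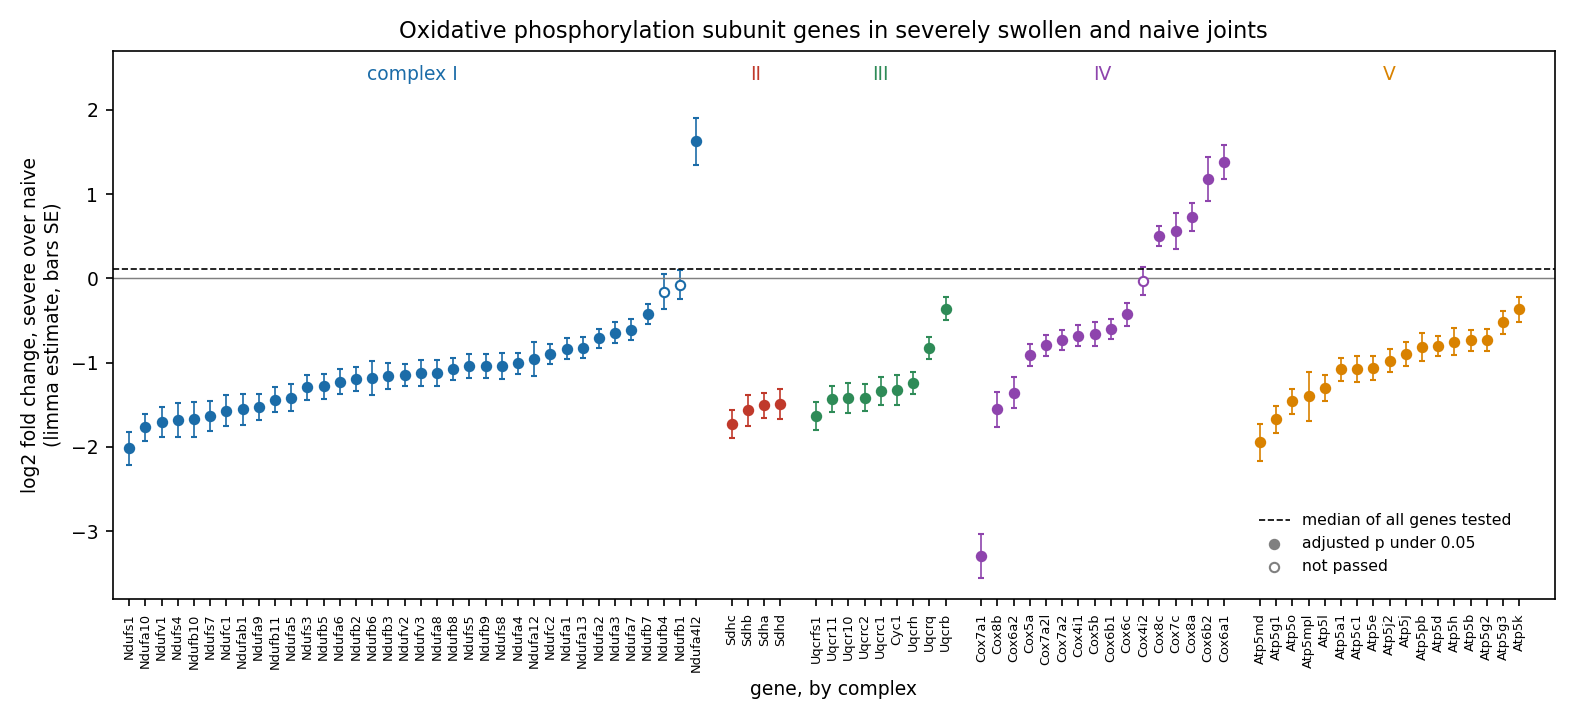
Log2 fold change of each of the 82 tested subunit genes in severe swelling against naive, grouped by complex. Points are limma estimates, bars are SE, open points did not pass and the dashed line is the median of all genes at 0.11. The values run between -3.29 (Cox7a1) and 1.63 (Ndufa4l2).

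The log2 fold changes of complex IV covered the widest range of the 5 complexes. Of its subunits without a muscle form or with a widely expressed one, some fell and some rose in severe swelling against naive. Among those that fell, Cox4i1 changed by -0.68 ± 0.12, Cox5a by -0.91 ± 0.13, Cox5b by -0.66 ± 0.14 and Cox6b1 by -0.60 ± 0.12. Cox6c changed by -0.43 ± 0.14 (adjusted p = 0.0164, with 0.084 on hybridization controls), and its call was lost without naive replicate 3 (-0.37), severe replicate 1 (-0.39) or severe replicate 2 (-0.36).

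Of the pairs of heart and muscle isoforms and their widely expressed counterparts, Cox6a2 and Cox6a1 moved in opposite directions. Cox6a2, the muscle form of subunit 6a, had signals of 8107, 7244 and 8352 in naive joints, 8477, 8174 and 9336 without swelling, 4736, 5824 and 3886 with mild, 2928, 3016 and 3666 with moderate and 2402, 4052 and 2981 with severe swelling. Cox6a1, the form of most other tissues, had signals of 1484, 1234 and 1286 in naive joints, 1428, 1924 and 1389 without swelling, 2501, 1789.5 and 3118 with mild, 2688, 3704 and 2809 with moderate and 4003, 2712 and 3919 with severe swelling. Each swollen array was below each other array for Cox6a2, while for Cox6a1 mild replicate 2 overlapped the unswollen arrays and the other 8 swollen arrays were above all 6. In severe swelling Cox6a2 changed by -1.36 ± 0.18 (adjusted p = 1.15e-05) and Cox6a1 by 1.38 ± 0.21 (adjusted p = 3.65e-05). The log2 difference between the 2 probe sets was 2.22 lower on the 9 swollen arrays than on the 6 others, ranging between -0.73 and 1.69 in the first and between 2.08 and 2.73 in the second. Only changes in this difference are read, since signals of different probe sets are not on 1 scale. An exact two-sided permutation test over the arrays gave p = 0.0001998, the smallest that its 5005 arrangements can give, and 0.0003996 after Benjamini-Hochberg adjustment over 4 pairs. The pairs and their test were chosen with earlier results of these data known, so the p-values of the 4 pairs are no independent support. Muscle markers, which are given further on, moved on the same arrays, and their part in this difference was not tested.

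Cox8b and Cox8a also parted. Cox8b, the muscle form of subunit 8, had signals of 7171, 7015 and 7466 in naive joints, 7104, 8712 and 8722 without swelling, 3639.8, 4556 and 3229.9 with mild, 1982, 2119.6 and 2977 with moderate and 1686, 3024 and 2890.4 with severe swelling. Cox8a had signals of 809.6, 813 and 837 in naive joints, 823, 912 and 723 without swelling, 1144, 894 and 1180.1 with mild, 1134, 1434 and 1069 with moderate and 1592, 1051 and 1515 with severe swelling. Cox8b was lower on each swollen array than on the 6 others. The severe arrays of Cox8a were above the naive ones, while mild replicate 2 lay below no-swelling replicate 2, and the mild group did not pass against naive (0.37 ± 0.16, adjusted p = 0.0839). The changes in severe swelling were -1.55 ± 0.21 for Cox8b and 0.72 ± 0.16 for Cox8a (adjusted p = 1.3e-05 and 0.00143). The difference between them was 2.01 lower on swollen arrays (0.08 to 2.33) than on the others (3.09 to 3.56), with the same exact p of 0.0001998 and adjusted value of 0.0003996.

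Cox7a1, the muscle form of subunit 7a, gave the deepest fall of the 82 genes in severe swelling. Its signals were 3699, 3551 and 4037 in naive joints, 1862, 2721 and 3008 without swelling, 1365, 2182 and 914 with mild, 374, 578 and 418 with moderate and 304, 371 and 445 with severe swelling. The moderate and severe arrays were far below the rest, and mild and unswollen arrays overlapped. The change was -1.42 ± 0.26 in mild, -3.02 ± 0.26 in moderate and -3.29 ± 0.26 in severe swelling against naive, the last a fold of 0.102 (adjusted p = 1.68e-07). Joints without swelling gave -0.60 ± 0.26, which did not pass (adjusted p = 0.227). Its counterpart Cox7a2 had signals of 4635, 4834 and 5504 in severe swelling, against 8477, 7582 and 8785 in naive joints, with no overlap, and a change of -0.73 ± 0.12 (adjusted p = 6.56e-05). Both fell, and the difference between them was 1.51 lower on swollen arrays (-3.86 to -1.57) than on the others (-2.25 to -1.09), with overlap and an adjusted exact permutation p of 0.0028. Relative to naive it was 0.76 lower already without swelling and 0.94 lower in mild swelling, against 2.16 lower in moderate and 2.56 lower in severe swelling, so the pooled test does not place the change at the mild step.

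Cox4i2, a form of subunit 4 known from lung and from hypoxic cells, was dim. Its signals were 60.4, 52.5 and 43.2 in naive joints, 56, 62.5 and 56.3 without swelling, 38.9, 54.2 and 48.7 with mild, 45.5, 50.5 and 32 with moderate and 47.7, 56.2 and 47.1 with severe swelling, with overlap between groups, and its value in severe swelling was -0.03 ± 0.17, which did not pass (adjusted p = 0.892). The difference between Cox4i2 and Cox4i1 was 0.55 higher on swollen arrays than on the others (adjusted exact permutation p = 0.00107). After quantile normalization it was 0.12 and did not pass (adjusted exact permutation p = 0.318). Against naive, Cox4i2 did not pass in mild (-0.10) or moderate swelling (-0.22) either. Cox4i1 fell by -0.60 in mild, -0.84 in moderate and -0.68 in severe swelling. The pair test therefore cannot tell a shift between the forms from the fall of Cox4i1 alone.

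Of the other complex IV genes called higher, Cox6b2 and Cox8c are known as testis isoforms, as is Cox7b2. Cox6b2 had 6.4, 19.9 and 2.7 in naive joints, 31.9, 16 and 25.2 without swelling, 26.7, 44 and 31.8 with mild, 30.2, 38.6 and 40.6 with moderate and 48, 28 and 45.6 with severe swelling. The naive values lie below the filter's percentile of their arrays, and the gene was tested only because other groups were higher, so its call carries no weight. The value of 1.18 ± 0.26 ranged between 0.51 and 2.28 over the settings tried, with 64 and with 1 added to the signal in place of 16. Cox8c had 258, 250.4 and 269 in severe swelling, against 194, 159 and 183 in naive joints, without overlap, and a change of 0.50 ± 0.12 (adjusted p = 0.00238), which fell short of the threshold with array medians aligned (0.30) and as the mean of its probe sets (0.45). Cox7c, a common subunit, had 42, 39.4 and 41.8 in severe swelling, against 26.5, 20.6 and 20.8 in naive joints, and its naive values were below the filter's percentile too, with the same limit. Its value was 0.57 ± 0.21 (adjusted p = 0.0333), and it did not pass with array medians aligned (0.42, adjusted p = 0.106) or after quantile normalization (0.45, adjusted p = 0.0808). The call was also lost when naive replicate 2, naive replicate 3 or any 1 severe array was left out, at values between 0.53 and 0.59. Cox7b2 was the gene that did not pass the filter, with signals between 0.5 and 18.3.

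**Figure D3:**
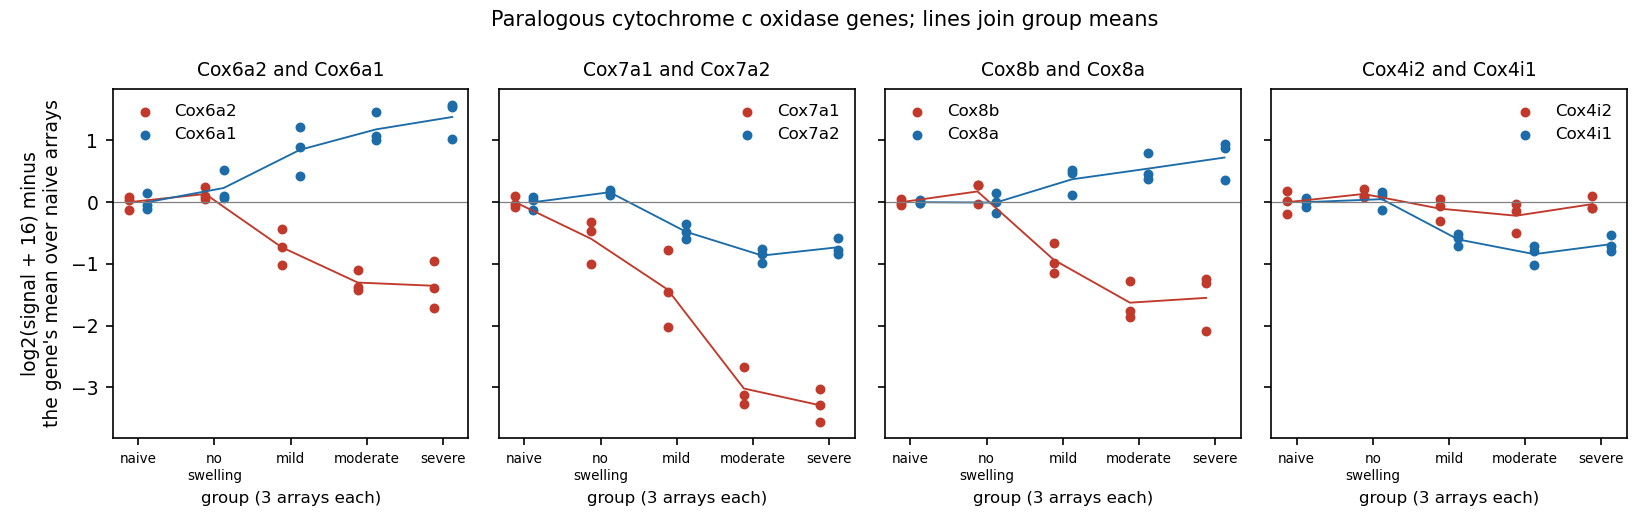
Log2(signal + 16) of the genes of 4 complex IV isoform pairs on each array, minus each gene's naive mean, by group. Each point is 1 array and lines join group means. In moderate and severe swelling Cox6a2 and Cox8b lie below their naive means and Cox6a1 and Cox8a above them, and Cox7a1 lies lower than Cox7a2.

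The promoters of 3 members of these pairs that fell and of 2 that rose were looked at beside their values. They were taken from RefSeq (GRCm38.p6) as the 250 bases before and 50 after the gene's start, which 67 of the 83 genes have in the table used. Cox6a2, Cox4i1, Cox4i2 and Ndufa4l2 are not among them. The motifs of 4 transcription factors known to act on mitochondrial genes were searched on both strands: NRF1 (GCGCATGCG), GABPA (CCGGAAG), ESRRA (TCAAGGTCA) and YY1 (AAGATGGCG). Matches are in capitals, on either strand, and each sequence reads 5′ to 3′ in the direction of its gene. The window of Cox6a1 lies at chr5:115348909-115349208 (minus strand), Cox8a at chr19:7217567-7217866 (minus), Cox7a1 at chr7:30183921-30184220 (plus), Cox7a2 at chr9:79759804-79760103 (minus) and Cox8b at chr7:140900397-140900696 (minus).
Cox6a1: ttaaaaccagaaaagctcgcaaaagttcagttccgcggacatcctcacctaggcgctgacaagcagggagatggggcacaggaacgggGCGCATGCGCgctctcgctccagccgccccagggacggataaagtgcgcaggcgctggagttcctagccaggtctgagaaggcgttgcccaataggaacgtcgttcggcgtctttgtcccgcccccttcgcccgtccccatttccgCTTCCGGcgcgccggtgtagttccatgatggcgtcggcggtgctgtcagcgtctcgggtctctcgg
Cox8a: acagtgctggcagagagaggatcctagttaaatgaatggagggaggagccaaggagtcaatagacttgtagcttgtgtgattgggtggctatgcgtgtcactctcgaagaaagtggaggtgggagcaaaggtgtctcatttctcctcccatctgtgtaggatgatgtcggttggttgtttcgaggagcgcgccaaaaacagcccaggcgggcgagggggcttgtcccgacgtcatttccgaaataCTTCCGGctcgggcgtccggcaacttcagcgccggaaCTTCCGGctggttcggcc
Cox7a1: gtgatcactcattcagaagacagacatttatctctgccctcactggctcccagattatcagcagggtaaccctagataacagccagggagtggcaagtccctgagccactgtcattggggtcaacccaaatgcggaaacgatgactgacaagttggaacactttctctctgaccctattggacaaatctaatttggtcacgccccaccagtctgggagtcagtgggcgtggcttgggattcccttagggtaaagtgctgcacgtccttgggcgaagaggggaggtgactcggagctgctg
Cox7a2: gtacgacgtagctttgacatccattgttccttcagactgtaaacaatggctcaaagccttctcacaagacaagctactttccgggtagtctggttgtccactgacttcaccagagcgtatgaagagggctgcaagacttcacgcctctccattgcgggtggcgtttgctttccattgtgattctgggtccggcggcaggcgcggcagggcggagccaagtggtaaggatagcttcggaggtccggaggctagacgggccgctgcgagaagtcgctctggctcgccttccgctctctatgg
Cox8b: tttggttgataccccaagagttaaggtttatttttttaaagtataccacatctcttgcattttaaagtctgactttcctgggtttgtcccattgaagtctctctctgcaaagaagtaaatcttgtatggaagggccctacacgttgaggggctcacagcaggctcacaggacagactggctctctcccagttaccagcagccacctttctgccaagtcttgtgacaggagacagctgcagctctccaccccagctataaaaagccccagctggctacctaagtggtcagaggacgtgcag
The Cox6a1 window held 3 matches, NRF1 on both strands at overlapping positions and GABPA once, and the Cox8a window 2 matches to GABPA. The windows of Cox7a1, Cox7a2 and Cox8b held none of these letters. They also differ in CG pairs, of which there are 32 in Cox6a1, 19 in Cox8a, 20 in Cox7a2, 7 in Cox7a1 and 2 in Cox8b. Over the 67 genes with a window, NRF1 matched in 7 (10.4%, against 3.59% of tested genes), GABPA in 17 (25.4%, against 17.5%), YY1 in 6 (8.96%, against 3.05%) and ESRRA in 2 (2.99%, against 0.374%). A match to any of the motifs was found in 26 of the 67, and of these only Cox6a1 and Cox8a rose in severe swelling against naive. The others fell, among them Uqcr11 (-1.43) and Atp5l (-1.30), which matched NRF1 and GABPA as Cox6a1 did. Cox6b2 and Cox7c, also called higher, had a window without a match. Whether matches go with the direction of change was not tested. Matches of different motifs did not overlap in these genes. A match describes letters in a window and not a bound site.

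Complex V consists of the F1 head, which makes ATP, a c ring turned by protons, a peripheral stalk and small membrane subunits. The medians in severe swelling against naive were -1.07 for the 5 genes of the head, -0.73 for the 3 of the c ring, -0.86 for the 4 of the stalk and -1.30 for the 5 membrane accessory genes, and all 17 fell. Atp5b, the catalytic beta subunit, had signals of 7411, 7381 and 6982 in naive joints, 8455, 7853 and 9183 without swelling, 5583, 6044 and 4864 with mild, 4044, 3951 and 4592 with moderate and 3707, 4545 and 4872 with severe swelling. The swollen arrays were below the 6 others. It changed by -0.74 ± 0.13 in severe swelling (adjusted p = 0.000142), the alpha subunit Atp5a1 by -1.08 ± 0.14 and the gamma subunit Atp5c1 by -1.08 ± 0.16. Atp5o, the stalk protein through which oligomycin sensitivity is conferred, changed by -1.46 ± 0.15.

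Atp5g1, Atp5g2 and Atp5g3 encode the same mature c subunit. Atp5g1 had signals of 6342, 5870.4 and 6506 in naive joints, 5037, 6171 and 6031 without swelling, 2814, 3375 and 2002 with mild, 1424, 1608 and 1484 with moderate and 1749, 2062 and 2037 with severe swelling. Atp5g3 had signals of 9237, 7654 and 8848 in naive joints, 8337, 9106 and 9192 without swelling, 6065, 6199.5 and 5700.3 with mild, 3914, 5627 and 5057 with moderate and 5524, 5569.6 and 6845 with severe swelling. Both were below the other arrays on each swollen array, but the change in severe swelling was -1.67 ± 0.16 for Atp5g1 and -0.52 ± 0.14 for Atp5g3 (adjusted p = 6.29e-07 and 0.00482), with -0.73 ± 0.13 for Atp5g2. On hybridization controls Atp5g3 was at -0.01 and did not pass (adjusted p = 0.981). Whether these changes differ from each other was not tested.

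Atp5md, the small membrane subunit also called DAPIT, had the lowest change of complex V in severe swelling, while Atp5g1 had the lowest in moderate (-2.04, against -1.38 for Atp5md) and was below it in mild swelling (-1.22, against -0.90). Its signals were 3041, 4279 and 4967 in naive joints, 3321, 4004 and 3633 without swelling, 2131, 2572 and 1799.8 with mild, 1462, 1353 and 1818 with moderate and 727, 1328 and 1131 with severe swelling. Each swollen array was below the 6 others, and the change was -1.95 ± 0.22 in severe swelling (adjusted p = 2.5e-06). Atp5k, the e subunit, changed least and had a value of 0.14 on hybridization controls. It had signals of 5187, 4466 and 4134 in severe swelling, against 6326, 5569.7 and 5865 in naive joints, without overlap, and a change of -0.37 ± 0.14 (adjusted p = 0.0406). The call was lost when any 1 naive array was left out (-0.32, -0.41 and -0.37 for replicates 1, 2 and 3), and without severe replicate 2 (-0.35) or severe replicate 3 (-0.30).

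**Figure D4:**
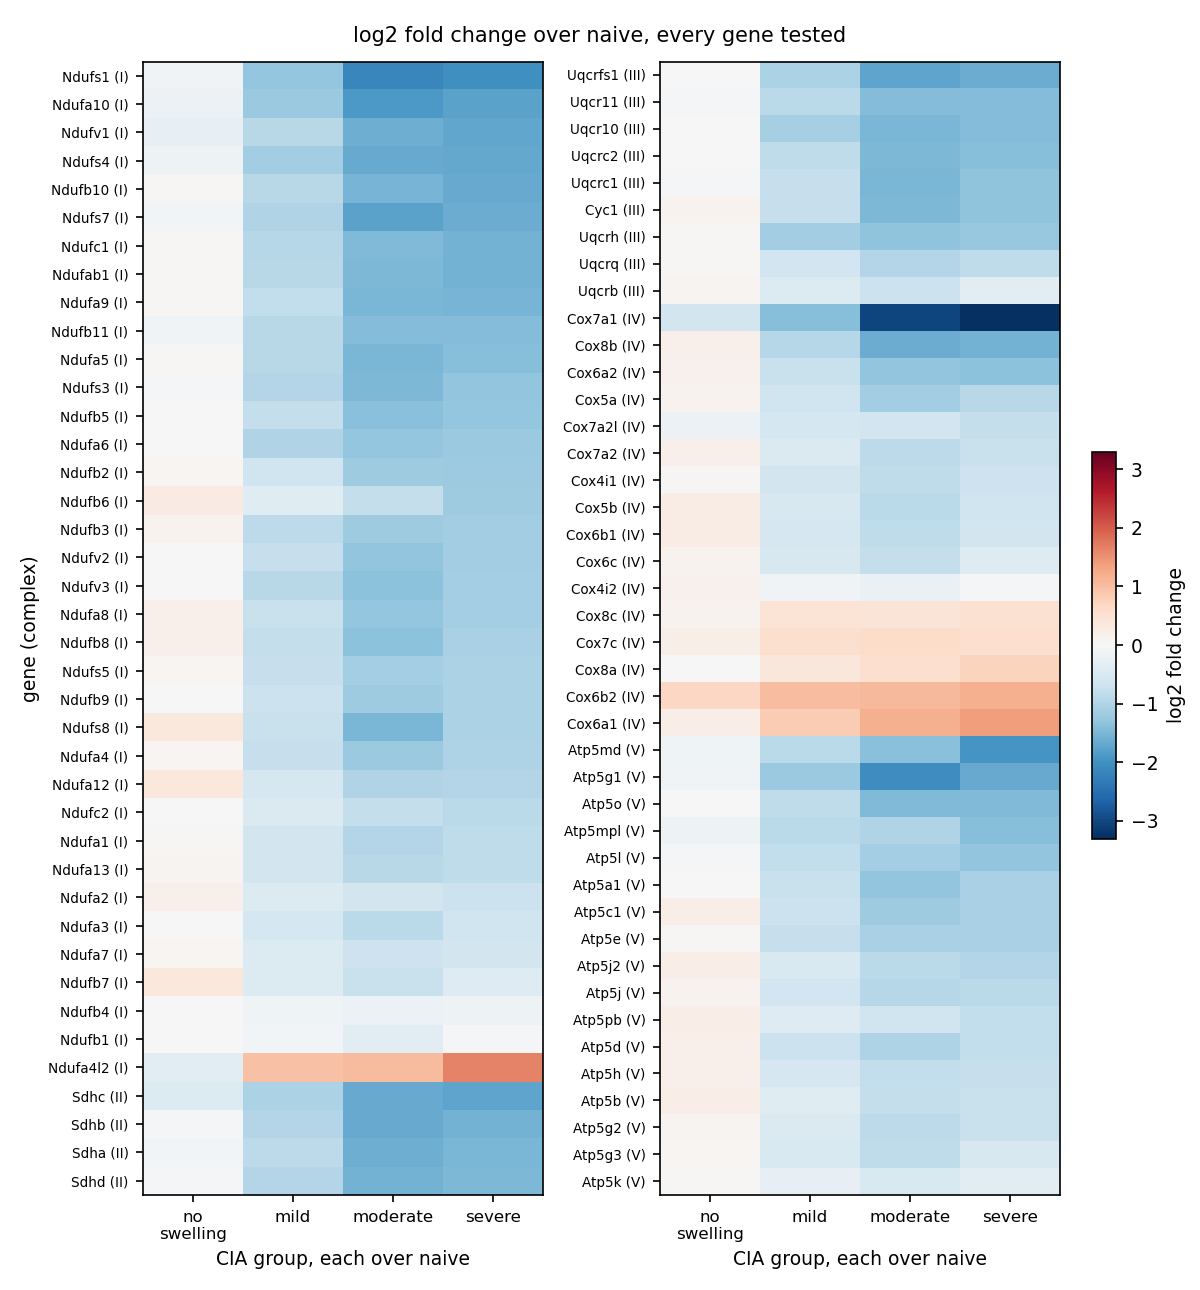
Log2 fold change over naive of the 82 tested subunit genes (lines of the map, by complex) in joints with no, mild, moderate and severe swelling (columns), with blue for lower and red for higher. On the deposited scale the first column is near 0, the other 3 are mostly lower, and a few genes, among them Ndufa4l2 and Cox6a1, are higher.

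In the unswollen joints of CIA mice no subunit gene passed the threshold against naive. The median was 0.04 against -0.01 over all genes. The lowest p-values were those of Ndufb7 (0.34 ± 0.12), Sdhc (-0.44 ± 0.16) and Cox6b2 (0.69 ± 0.26), none of which passed (adjusted p = 0.13, 0.158 and 0.164). Cox7a1 and Ndufs8 were the other 2 of the 5 genes under an unadjusted p of 0.05, and Ndufs8 gave 0.35 ± 0.15.

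Set against joints without swelling, 71 genes fell and 2 rose in mild swelling (all genes 15.6% and 23%), with a median of -0.77 as deposited, against 0.09 over all genes, and of 0.01 on hybridization controls. The lowest p-values were those of Uqcrh (-1.19 ± 0.13), Ndufb8 (-0.95 ± 0.13) and Atp5d, the delta subunit of the ATP synthase head (-0.88 ± 0.12), with adjusted p of 2.44e-05, 8.55e-05 and 8.72e-05. The 2 that rose were Ndufa4l2 and Cox6a1, and the count was 1 without mild replicate 1 or 3 or without no-swelling replicate 1 or 3. In severe swelling against no swelling 73 fell and 4 rose (all genes 22% and 33.1%), with a median of -1.21 against 0.14. There the lowest p-values were those of Cox7a1 (-2.70 ± 0.26), Ndufa9 (-1.57 ± 0.15) and Ndufa10 (-1.57 ± 0.16), and the 4 that rose were Ndufa4l2, Cox6a1, Cox8a and Cox8c. On hybridization controls 0 fell in mild and 24 in severe swelling against no swelling (all genes 0.251% and 3.89%). There the medians of all genes moved up by 0.62 and 0.52.

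Against mild swelling, moderate swelling was lower in 25 genes and higher in 0 (all genes 3.43% and 3.3%), with a median of -0.41 against 0.01. An unadjusted p under 0.05 in limma was found in 57 of the 82, against 3411 of the 14315 genes tested. The lower genes comprised 13 of complex I, 3 of II, 4 of III, 2 of IV and 3 of V, among them all 5 measured genes of the Q module. The lowest p-values were those of Cox7a1 (-1.60 ± 0.26), Ndufs8 (-0.79 ± 0.15) and Atp5g1 (-0.82 ± 0.16), with adjusted p of 0.00496, 0.00983 and 0.00999. This count rested on single arrays: it was 4, 3 and 47 without mild replicate 1, 2 and 3, and 7, 4 and 11 without moderate replicate 1, 2 and 3. It was 1 on hybridization controls (all genes 1.06%), and 0 with only the 2 groups in the fit. Calls over all genes were not counted without an array or with only the 2 groups.

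Between severe and moderate swelling 0 of the 82 genes passed in limma, and the background was 0% in either direction. An unadjusted p under 0.05 was found in 7 of the 82, against 889 of the 14315 genes tested. The median was 0.10 against 0.03. The lowest p-values were those of Ndufs8 (0.48 ± 0.15), Atp5md (-0.57 ± 0.22) and Cox6c (0.36 ± 0.14), each with an adjusted p of 0.742.

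**Figure D5:**
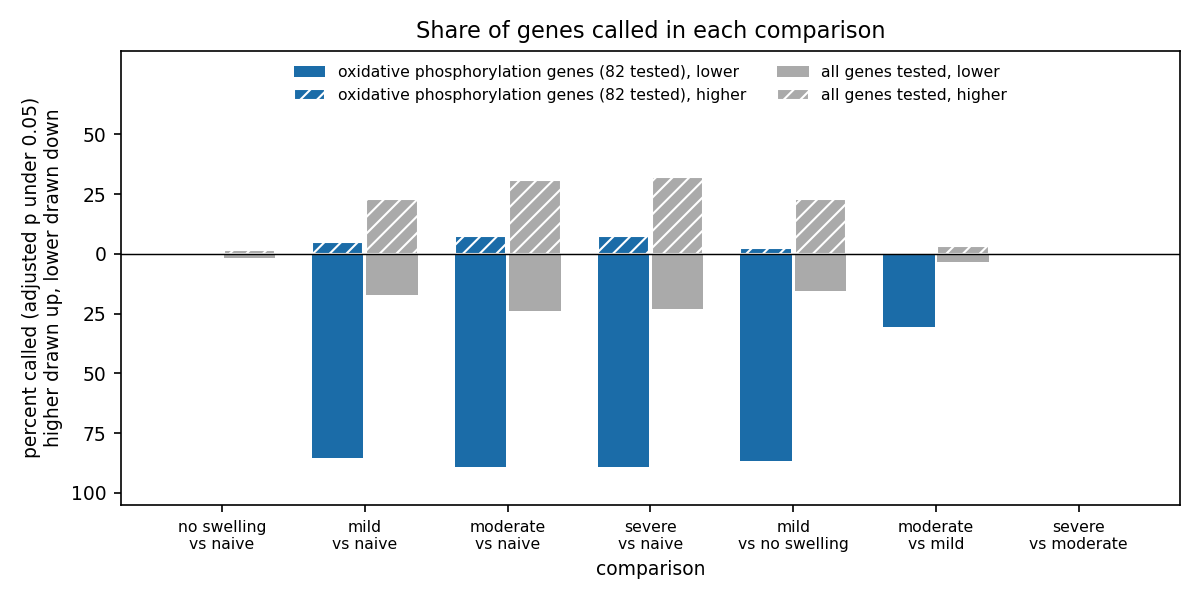
Percent of the 82 subunit genes and of the 14315 genes tested that were called higher (bars above 0) and lower (bars below 0) in each of 7 comparisons, at an adjusted p under 0.05. In severe swelling against naive 89% of the subunit genes were lower, against 22.9% of all genes.

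Other cell types changed on the same arrays. In a dissected tissue, fewer cells of a type and less RNA per cell cannot be told apart. Of all genes tested 22.9%, 23.8% and 17.1% fell in severe, moderate and mild swelling against naive, and 32.3% rose in severe swelling. Their medians were 0.11, 0.06 and 0.05 as deposited, and 0.53 in severe and 0.58 in mild swelling on hybridization controls. Of 25 skeletal muscle markers 12 fell and 0 rose in severe swelling against naive, with a median of -0.36 as deposited and 0.16 on hybridization controls, while 22 fell in moderate (-0.66) and 16 in mild swelling (-0.48, and 0.17 on hybridization controls). Their summed signal was 136170 to 185661 in severe swelling, 91361 to 142815 in moderate and 125506 to 137508 in mild, against 195811 to 203865 without swelling and 179929 to 203953 in naive joints. The sums in swollen and naive joints overlap in severe swelling. The 12 that fell were Myl3 (-5.37), Myl2 (-4.44), Myh7 (-4.11), Myh2 (-3.57), Tnnc1 (-2.73), Tnni1 (-2.01), Mybpc1 (-1.73), Casq1 (-0.61), Neb (-0.58), Mb (-0.46), Mylpf (-0.42) and Ryr1 (-0.36), which encode parts of the contractile, calcium and oxygen-binding apparatus of muscle. The other 13 had values between -1.37 (Tnnt1) and 0.13 (Tnnc2), among them the skeletal actin gene Acta1 (0.10) and the muscle creatine kinase gene Ckm (-0.03). Of 9 adipocyte markers 7 fell, with a median of -1.59, and 2 of 3 erythroid markers fell. All 10 synovial fibroblast markers rose, with a median of 2.34, as did all 9 macrophage (2.36) and all 7 neutrophil markers (3.87). In naive joints 6 of the 7 neutrophil and 1 of the 9 macrophage markers had a mean below the filter's percentile. Such genes were tested only because other groups were higher, so the neutrophil count carries no weight. No gene of these lists had a signal of 0 throughout a group. Prg4, the lubricin gene of the synovial lining, averaged 8698 in severe swelling and 2369 in naive joints, so this marker of the labelled tissue was well detected in both. The 3′ to 5′ signal ratio of the actin control is a measure of RNA integrity. It was 1.21 to 1.27 in severe, 1.19 to 1.27 in moderate and 1.13 to 1.19 in mild swelling. In CIA joints without swelling it was 1.07 to 1.16, and in naive joints 0.89 to 1.03. The same ratio of the Gapdh control was 0.825 to 0.959 in severe swelling and 0.826 to 0.888 in naive joints, which overlap. The part of muscle, fat, infiltrating cells and RNA integrity in the fall of the subunit genes was not tested.

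Genes that work with the complexes fell with them in most lists. These lists were chosen with earlier results of the data known. Over all genes tested 22.9% fell and 32.3% rose in severe swelling against naive, with a median of 0.11, and 5.52% fell on hybridization controls. The mitochondrial transcript of ND5, a core proton-pumping subunit of complex I encoded by mitochondrial DNA, gave -0.38 in severe swelling against naive (adjusted p = 0.031), and 0.13 on hybridization controls. Of 48 assembly factors 38 fell and 0 rose, with a median of -0.81 (15 fell on hybridization controls). Among them the complex I factors Acad9 and Ndufaf5 gave -1.46 and -1.92, and the ATP synthase factor Tmem70 gave -1.75. Of 18 genes of electron carriers and ubiquinone synthesis 16 fell and 2 rose, with a median of -1.08 (7 fell on hybridization controls). Coq9 and Coq10a, which serve ubiquinone synthesis and function, gave -2.21 and -2.55, and the glycerol phosphate dehydrogenase Gpd2 gave -2.05. Coq8b rose by 1.78 and Coq10b by 0.69, the last not passing with array medians aligned (adjusted p = 0.0879). A further list of 5 tested genes, subunits and partners whose symbols lie outside the rule (Bcs1l, Cmc1 and Cycs are in another list too), had 4 that fell, with a median of -1.03, among them cytochrome c, Cycs (-1.13), the complex III factor Bcs1l (-1.32) and Higd2a (-1.03).

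Regulators of mitochondrial biogenesis were divided. Of 23 such genes 11 fell and 2 rose in severe swelling, with a median of -0.16 as deposited and 0.31 on hybridization controls. Over all genes tested 22.9% fell and 32.3% rose, with medians of 0.11 and 0.53 on these scales. The coactivator Ppargc1a gave -2.36, the nuclear receptor Esrra -2.08 and the muscle regulator Perm1 -3.91, while Nrf1 rose by 0.61 and the coactivator Pprc1 by 0.71. Of 11 genes of ATP export, uncoupling and phosphate transport 7 fell and 2 rose, with a median of -0.70. Mitochondrial creatine kinase of muscle, Ckmt2, gave -3.26, and the outer membrane channels Vdac2 and Vdac3 gave -0.92 and -1.32. The adenine nucleotide carrier of most tissues, Slc25a5, rose by 0.86 and its heart and muscle counterpart Slc25a4 gave -0.59. Atpif1, an inhibitor of the ATP synthase, rose by 0.82.

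Most of the genes can be read on more than 1 probe set. Of the members called in severe swelling against naive, 48 had further probe sets above the filter on low signals, 80 in number. Of these 58 passed in the same direction, 22 did not pass and 0 passed in the opposite direction. Further probe sets below the filter are not in these counts. In severe swelling against no swelling 1 probe set, of Cox5b, passed in the opposite direction.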

How the data were processed

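Per the labels' protocols, biotin-labelled total RNA of each synovium sample was measured on its own Affymetrix array. The deposited intensity values are linear signals that the authors obtained from MAS5, a tool named in the submitters' processing notes. Its version is not given in these sources. On every array their mean after trimming 2% at each end was 150.0, so they were not scaled again. Median signals were 36.3 to 47.6 per array, replicate arrays correlated at 0.948 to 0.982, 0 arrays were identical, and precision is limited by the few arrays per group. Groups came from titles and source names, and no batch or scan date is given.

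Of 45101 probe sets, the platform annotation from GEO, possibly an old one, gives 34958 a single symbol, 932 several and leaves 9211 unnamed here. The subunit genes had 170 probe sets, and 49 genes had more than 1. A further 10 probe sets with several symbols were not used. All 83 symbols matched the RefSeq gene table, and 0 changed. Signals were transformed to log2(signal + 16), which understates changes of dim genes. Genes above their array's 40th percentile on at least 3 arrays were tested.

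Group means were fitted over all 15 arrays in R 4.3.3 with limma 3.58.1 (10 residual and 5.52 prior degrees of freedom, intensity trend), with Benjamini-Hochberg adjustment over all genes tested and a threshold of 0.05, two-sided. Errors of fold changes are SE. With 3 arrays a group an exact permutation test cannot give a p below 0.1, so isoform pairs were tested over 9 swollen and 6 other arrays. The steps were tested on simulated data. Members, lists and tests were chosen with earlier results of these data known. Named were the isoform pairs, core subunits, the 3 lowest and 2 highest changes of each complex, genes higher than naive, the 3 lowest p-values of each comparison and list, and genes moving against their list. Genes that complete a small count, the further muscle and complex IV genes and the carrier Slc25a4 were named after their values were seen. The alternatives were pseudocounts of 1 and 64, no filter or the 60th percentile, 3 other scalings, averaging all probe sets of a gene, other variance models, only the groups compared, a replicate block and leaving out each array.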

Additional observations from a re-analysis of the deposited data

Results flagged for a closer look

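The log2 difference between Cox8b and Cox8a stood apart on 1 array. Among the 6 arrays of unswollen and naive joints, no-swelling replicate 3 had a difference of 3.56, the highest, and its gap to the next array was 0.69 of the whole range. This is larger than Dixon's 95% critical value for 6 arrays. Chance gives such a gap in about 1 of 20 sets of arrays, and 8 sets were looked at. The difference was higher there than on any swollen array, as it was on the other 5.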

How the results depend on the processing

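Of the 48 named genes tested in severe swelling against naive, 861 values under alternatives were compared with the main ones: 809 kept direction and side of the threshold, 42 lost significance and 10 changed sign. Sign changes on hybridization controls were those of Atp5k (0.14), Cox4i2 (0.36), Cox6c (0.084), Ndufb1 (0.38), Ndufb7 (0.092) and Uqcrb (0.15), and Uqcrq gave 0.083 when its probe sets were averaged. Leaving out 1 array gave -0.13 to 0.056 for Cox4i2, with 0.056 without naive replicate 1 and 0.0032 without severe replicate 3, and -0.18 to 0.057 for Ndufb1, with 0.057 without naive replicate 2. Neither had passed.

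On hybridization controls 37 subunit genes were called by the F test, for which the share over all genes was not counted. There 31, 37 and 0 fell in severe, moderate and mild swelling against naive (all genes 5.52%, 5.34% and 0.929%). Against no swelling 24 fell in severe swelling (all genes 3.89%) and 0 in mild swelling (0.251%). In mild against no swelling 6 of the 82 rose there, against 6472 of the 14315 genes tested. On the same scale 1 was lower in moderate than in mild swelling (all genes 1.06%). The medians of complexes I to V were then -0.62, -1.03, -0.83, -0.12 and -0.46 in severe and -0.13, -0.33, -0.19, 0.11 and -0.066 in mild swelling. With array medians aligned, the median of all genes moved by -0.18 in severe swelling against naive. The severe medians were then -1.35, -1.76, -1.56, -0.85 and -1.20, and the mild median of complex IV was -0.64. There 1 subunit gene rose in mild against no swelling, against 2373 of the 14315 genes tested. Quantile normalization moved the median of all genes by -0.11 and gave -0.93, -1.35, -1.16 and -0.83 for complexes I, II, III and V in severe swelling, -0.27 and -0.46 for IV and V in mild swelling, and 0.12 for Cox4i2 minus Cox4i1. Averaging all probe sets of a gene gave -0.40 in severe and -0.43 in mild swelling for complex IV. The share of lower among all calls, on the deposited scale, with medians aligned and on hybridization controls, was 39.9%, 56.8% and 8.13% in severe against no swelling and 40.4%, 56.0% and 0.553% in mild against no swelling. In moderate swelling it was 43.5% as deposited and 13.4% on hybridization controls, in mild swelling 42.5% and 2.59%, and without swelling 53.7% as deposited and 42.9% with medians aligned.

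With array quality weights 64 genes were lower in moderate than in mild swelling and 4 were higher in mild than without swelling. With only the groups compared these counts were 0 and 1, and 1 gene was lower without swelling than in naive joints. Leaving out 1 array gave 3 to 47 and 1 to 3. The cause of these differences was not tested, beyond the smaller number of arrays in the last fits. Calls over all genes were not counted in any of these fits, so the counts have no background beside them.

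The groups share replicate numbers, but the numbers did not pair the samples: deviations of same-numbered arrays correlated between -0.51 and 0.33, and 0 of 15 arrays correlated best with their own number. With the replicate block 72 genes fell and 5 rose in severe swelling against naive, and 22 were lower in moderate than in mild swelling. Calls over all genes were not counted with the block. Atp5k (adjusted p = 0.06) and Cox7c (adjusted p = 0.0506) no longer passed in limma.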
